A study of Drosophila melanogaster with 4 samples.

Results

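The 7 genes described here encode proteins that the larval fat body of Drosophila is known for, and they were followed in RNA from wing imaginal discs. They are the hexamerin genes Lsp1alpha, Lsp1beta, Lsp1gamma and Lsp2, the fat body protein genes Fbp1 and Fbp2, and Pepck. They were taken by name from a deposited table of 13990 genes, and all 7 were found. The discs, which give rise to the adult wing and notum, came from wandering L3 larvae kept at 25 °C. Discs of each genotype, 80 to 100 in number, were pooled before RNA was extracted, and 1 library was made per genotype. The 4 genotypes were Yki+Tai, Yki+Tai-IR, Yki and GFP. In each of them the engrailed (en) driver, active in posterior disc cells, expressed GFP. Yki discs also expressed the growth coactivator Yorkie, Yki+Tai discs expressed Yorkie with the ecdysone receptor coactivator Taiman, and Yki+Tai-IR discs expressed Yorkie with an inverted repeat against tai. Whole discs were used, so each library mixes cells with and without the transgenes. The labels do not say whether the number of discs, stated for a GFP and a Tai genotype, holds for every genotype.

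In the last larval stage the fat body, an organ that resembles liver and adipose tissue, secretes large amounts of larval serum proteins into the hemolymph. Subunits encoded by Lsp1alpha, Lsp1beta and Lsp1gamma assemble into LSP1 hexamers, and Lsp2 encodes the subunit of a second hexamer. These proteins are an amino acid store for metamorphosis. Late in larval life ecdysone induces Fbp1, a member of the same protein superfamily that acts as the receptor through which fat body cells take LSP1 back. Fbp2 encodes a storage protein related to alcohol dehydrogenase, and Pepck encodes phosphoenolpyruvate carboxykinase, the enzyme that commits oxaloacetate to gluconeogenesis.

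Expression is given as FPKM, a count of fragments divided by transcript length and library size, so levels of different genes are compared per length. The depth implied by the spacing of low values was 12.5 M fragments (M, mega) in Yki+Tai, 8.30 M in Yki+Tai-IR, 9.59 M in Yki and 8.05 M in GFP. With no replicates there is no test. Ratios carry a 95% exact interval on the estimated fragments, which covers counting error only. Transcript of yki stood at 4535 FPKM in Yki+Tai, 2563 in Yki+Tai-IR and 5034 in Yki, against 71.5 in GFP, and tai stood at 1260.3, 22.9 and 25.0 FPKM in those 3 libraries, against 27.1 in GFP. The Yki+Tai-IR library is thus named for its transgene: its whole-disc tai level was close to those of Yki and GFP. All 10 wing disc markers on the list were present in every library, with sums of 610 FPKM in Yki+Tai, 698 in Yki+Tai-IR, 815 in Yki and 693 in GFP and a lowest single value of 7.28 FPKM. None of the 10 differed by 2-fold in any of the 4 comparisons, with medians on the log2(FPKM + 1) scale of 0.26 in Yki against GFP, -0.32 in Yki+Tai against Yki, -0.25 in Yki+Tai-IR against Yki and -0.16 in Yki+Tai against Yki+Tai-IR. The patterning genes rn and ap differed most, rn with 58.9, 39.0, 62.9 and 34.8 FPKM and ap with 68.0, 102, 118 and 99.3 FPKM in Yki+Tai, Yki+Tai-IR, Yki and GFP.

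The members fell into a low set of 6 genes and 1 abundant gene. The hexamerin and Fbp genes lay between 0.0710 and 9.25 FPKM in all libraries, with 44.7% to 70.3% of the genes in the table above them. Their summed level was 11.1 FPKM in Yki+Tai, 20.7 in Yki+Tai-IR, 16.2 in Yki and 21.8 in GFP, on 325, 385, 352 and 429 estimated fragments in that order of libraries. The median gene of the table stood at 3.52 to 4.17 FPKM. Pepck was far above them, at 3.52 times the sum of the other 6 in Yki+Tai, 8.63 times in Yki+Tai-IR, 7.71 times in Yki and 5.44 times in GFP. Whether these transcripts came from fat body cells, disc cells or other cells in the pools was not tested. In these bulk libraries, fewer cells that express a gene and less RNA per cell cannot be told apart.

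**Figure D1:**
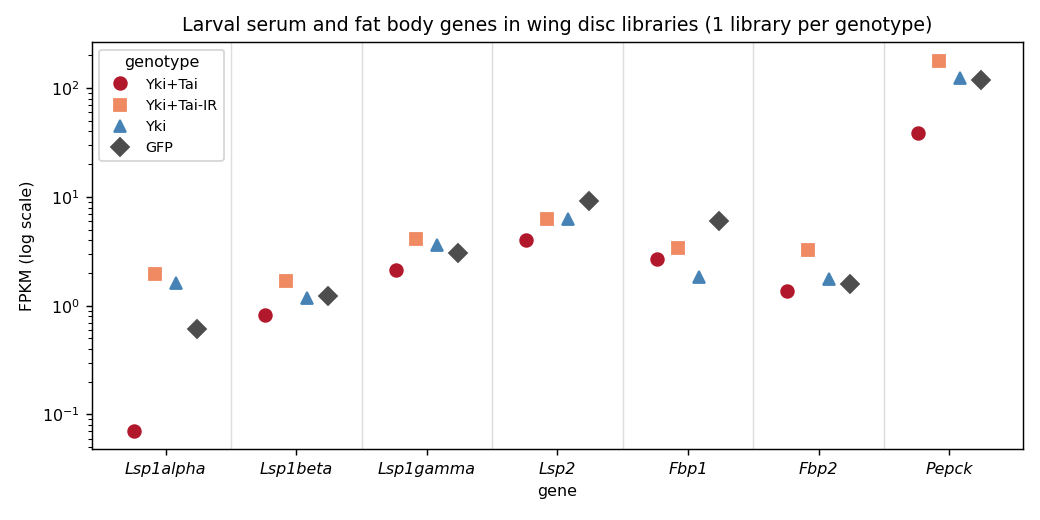
FPKM of each of the 7 genes (logarithmic axis) in the Yki+Tai, Yki+Tai-IR, Yki and GFP libraries, 1 point per library. Pepck lies between 39.0 and 179 FPKM, the other 6 genes lie between 0.0710 and 9.25 FPKM, and Yki+Tai is the lowest library for every gene except Fbp1.

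The LSP1 subunit genes lie on 3 chromosomes. In dm6 coordinates Lsp1alpha (FBgn0002562) spans positions 12490291 to 12492982 of chromosome X, Lsp1beta (FBgn0002563) spans 898500 to 901316 of 2L, and Lsp1gamma (FBgn0002564) spans 66430 to 68995 of 3L. All 3 lie on the + strand, with 2 exons and transcripts of 2501 to 2749 nt. They are related in sequence, and how Cuffdiff shared fragments among them is not given in the sources used here.

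Lsp1alpha differed most among the hexamerin genes. It stood at 0.0710 FPKM in Yki+Tai, 1.97 in Yki+Tai-IR, 1.62 in Yki and 0.605 in GFP, on about 2, 40, 38 and 12 fragments. Its value in Yki+Tai is below 0.0993 FPKM, the level of 3 fragments of this transcript in that library. Yki+Tai stood at 0.0437 times the level of Yki (interval 0.00471 to 0.156) and at 0.0360 times that of Yki+Tai-IR (0.00388 to 0.128). With 2 fragments in Yki+Tai, these ratios are known only within their wide intervals. The Yki library was above GFP, at a ratio of 2.68 (1.36 to 5.59). Yki+Tai-IR and Yki were not separated beyond counting error, at 1.21 (0.760 to 1.95). Lsp1alpha was thus high in Yki+Tai-IR and Yki, lower in GFP and lowest in Yki+Tai.

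Lsp1beta varied less. It stood at 0.830 FPKM in Yki+Tai, 1.70 in Yki+Tai-IR, 1.17 in Yki and 1.24 in GFP, on about 26, 36, 29 and 25 fragments. Of the 6 pairs of libraries, the interval left out 1 for Yki+Tai against Yki+Tai-IR alone, at a ratio of 0.489 (0.278 to 0.816). Lsp1gamma was the most abundant LSP1 gene in every library, at 2.12 FPKM in Yki+Tai, 4.12 in Yki+Tai-IR, 3.59 in Yki and 3.07 in GFP, on about 61, 78, 79 and 57 fragments. For Lsp1gamma Yki+Tai stood below Yki, at 0.590 (0.417 to 0.837), and below Yki+Tai-IR, at 0.514 (0.365 to 0.735). Yki+Tai-IR, Yki and GFP could not be ordered for Lsp1gamma, with ratios of 1.15 (0.823 to 1.58) for Yki+Tai-IR against Yki and 1.17 (0.817 to 1.67) for Yki against GFP.

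The makeup of the LSP1 fragments differed between libraries mainly in Lsp1alpha. This gene gave 2.25% of the LSP1 fragments in Yki+Tai (exact binomial interval 0.273% to 7.88%, of 89 fragments). Its share was 26.0% in Yki+Tai-IR (19.3% to 33.6%, of 154), 26.0% in Yki (19.1% to 33.9%, of 146) and 12.8% in GFP (6.77% to 21.2%, of 94). The interval of Yki+Tai lies wholly below those of Yki+Tai-IR and Yki and overlaps that of GFP. Compared directly, the FPKM ratio of Lsp1alpha in Yki+Tai against GFP was 0.117 (0.0117 to 0.482), an interval that left out 1. The share of Lsp1beta lay between 19.9% and 29.2% and that of Lsp1gamma between 50.6% and 68.5%, and for each of these genes the intervals of all 4 libraries overlapped. Such overlap does not show that the shares were equal.

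**Figure D2:**
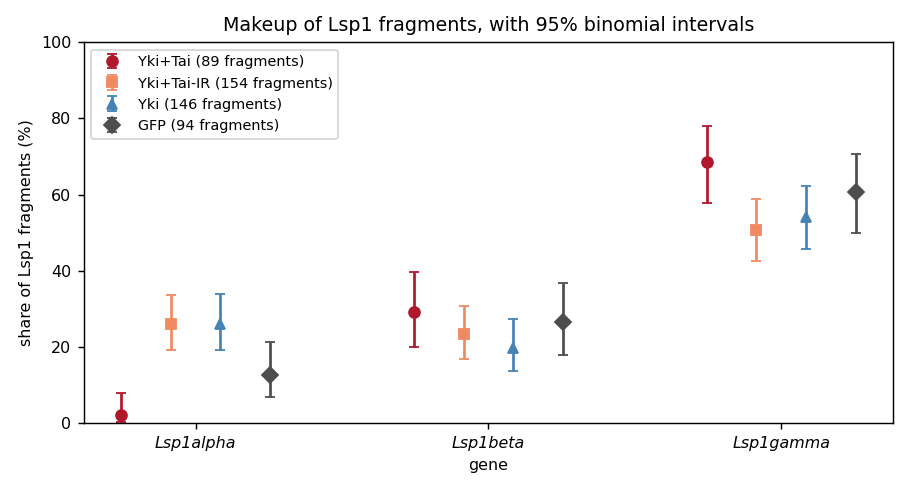
Share of all LSP1 fragments (percent) that came from Lsp1alpha, Lsp1beta and Lsp1gamma in the Yki+Tai, Yki+Tai-IR, Yki and GFP libraries; bars are exact 95% binomial intervals on estimated fragments. The share of Lsp1alpha is 2.25% in Yki+Tai, 26.0% in both Yki+Tai-IR and Yki, and 12.8% in GFP.

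Lsp2 (FBgn0002565, 3L, 12129393 to 12131869, + strand, 1 exon) was the most abundant hexamerin gene. It stood at 3.99 FPKM in Yki+Tai, 6.28 in Yki+Tai-IR, 6.21 in Yki and 9.25 in GFP, on about 113, 118, 135 and 169 fragments. GFP was the highest library and Yki+Tai the lowest, with Yki+Tai-IR and Yki between them and not separated beyond counting error, at 1.01 (0.782 to 1.30). The ratio of Yki to GFP was 0.672 (0.531 to 0.846), that of Yki+Tai to Yki 0.642 (0.495 to 0.830) and that of Yki+Tai to GFP 0.431 (0.336 to 0.549). The antisense RNA asRNA:CR11538 is annotated over much of Lsp2 on the other strand. The library kit does not mark strand, so reads of Lsp2 and of this RNA cannot be told apart.

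Summed over the 4 Lsp genes, the level was 7.01 FPKM in Yki+Tai, 14.1 in Yki+Tai-IR, 12.6 in Yki and 14.2 in GFP. The ratio of Yki+Tai to Yki was 0.556 (0.458 to 0.663), that of Yki+Tai to Yki+Tai-IR 0.498 (0.409 to 0.593) and that of Yki+Tai to GFP 0.495 (0.409 to 0.596). On this sum the other 3 libraries were not separated, with ratios of 1.12 (0.943 to 1.33) for Yki+Tai-IR against Yki, 0.890 (0.755 to 1.07) for Yki against GFP and 0.994 (0.843 to 1.19) for Yki+Tai-IR against GFP. The sum hides opposite differences. In Yki+Tai-IR against GFP the LSP1 sum stood at 1.59 (1.22 to 2.08) and Lsp2 at 0.679 (0.530 to 0.861). The balance between the hexamers thus varied. Lsp2 stood at 1.32 times the LSP1 sum in Yki+Tai, 0.806 times in Yki+Tai-IR, 0.973 times in Yki and 1.88 times in GFP.

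Fbp1 (FBgn0000639, 3L, 14094589 to 14098053, - strand) had another order of libraries than the LSP1 genes. It stood at 2.71 FPKM in Yki+Tai, 3.40 in Yki+Tai-IR, 1.82 in Yki and 6.01 in GFP, on about 108, 90, 56 and 155 fragments. GFP was highest and Yki lowest. The ratio of Yki to GFP was 0.303 (0.219 to 0.414). Yki+Tai and Yki+Tai-IR lay above Yki, Yki+Tai at 1.49 times (1.06 to 2.08) and Yki+Tai-IR at 1.87 times (1.32 to 2.64), and they were not separated from each other, at 0.797 (0.596 to 1.07) for Yki+Tai against Yki+Tai-IR. Both were also below GFP, at 0.450 (0.347 to 0.577) for Yki+Tai and 0.565 (0.429 to 0.735) for Yki+Tai-IR.

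Fbp2 (FBgn0000640, 2L, 9426784 to 9427917, + strand) rests on few fragments. It stood at 1.36 FPKM in Yki+Tai, 3.23 in Yki+Tai-IR, 1.78 in Yki and 1.58 in GFP, on about 15, 23, 15 and 11 fragments. Yki+Tai-IR was the highest library, and its interval left out 1 against Yki+Tai alone, at 0.420 (0.210 to 0.866) for Yki+Tai against Yki+Tai-IR. Against Yki the ratio of Yki+Tai-IR was 1.82 (0.885 to 3.65). CG42847, which overlaps the end of Fbp2 on the same strand, was listed at 0 in all libraries.

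Pepck (FBgn0003067, now named Pepck1, 2R, 18536767 to 18539416, + strand) held most of the signal of the 7 genes. It stood at 39.0 FPKM in Yki+Tai, 179 in Yki+Tai-IR, 125 in Yki and 118 in GFP, on about 1109, 3377, 2724 and 2166 fragments. In Yki+Tai 20.6% of genes stood above it, against 4.07% in Yki+Tai-IR, 6.11% in Yki and 6.58% in GFP. The ratio of Yki+Tai to Yki was 0.312 (0.291 to 0.335), that of Yki+Tai to Yki+Tai-IR 0.218 (0.203 to 0.233) and that of Yki+Tai-IR to Yki 1.43 (1.36 to 1.51). Yki stood at 1.06 times GFP (0.997 to 1.12), and whether this interval holds 1 depended on the scaling: it was 1.01 to 1.13 when libraries were rescaled by the median ratio and 1.04 to 1.16 when they were rescaled to the same FPKM sum. Yki+Tai-IR was therefore highest and Yki+Tai lowest, with Yki and GFP close together between them. The open reading frame CG45087 is annotated over the same span and strand, so the value of Pepck covers it too.

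**Figure D3:**
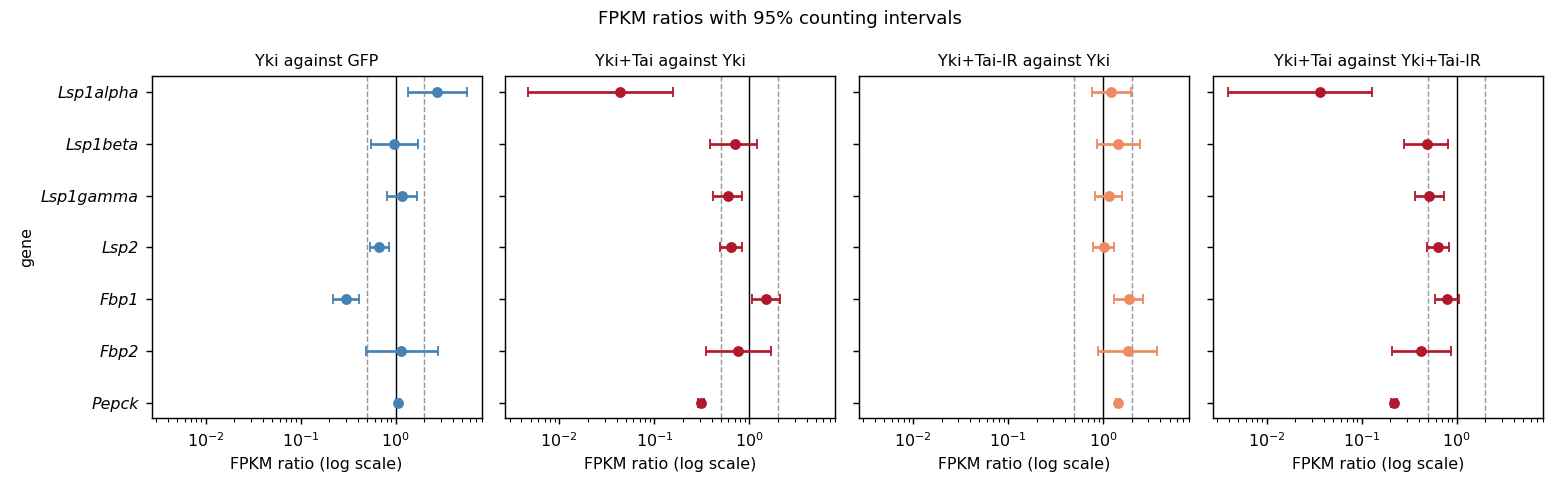
FPKM ratios (logarithmic axis) of the 7 genes in 4 comparisons, with 95% counting intervals; dashed lines mark 2-fold. In Yki+Tai against Yki+Tai-IR all 7 ratios are below 1, from 0.0360 for Lsp1alpha to 0.797 for Fbp1, and in Yki+Tai-IR against Yki they run from 1.01 for Lsp2, which falls below 1 when libraries are rescaled, to 1.87 for Fbp1.

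Across the whole table, 7808 genes other than small-RNA genes reached a mean of at least 1 FPKM over the 4 libraries, and a gene was called where 2 libraries differed by at least 1 on the log2(FPKM + 1) scale. All 7 members pass this filter, Lsp1alpha with a mean of 1.07 FPKM that it owes to Yki+Tai-IR and Yki, the only libraries in which it exceeded 1 FPKM. A gene let in by the libraries where it is high had to differ from the others, so counts of called genes are descriptions, here and in the lists that follow. The scale understates the change of low genes. In Yki against GFP 0 of 7 members were called higher, where 1.86% of all genes were, and 1 was called lower, Fbp1 at -1.31, where 3.05% were. The median difference of the members was 0.078 beside -0.0036 for all genes.

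With Tai beside Yki, 0 members were called higher in Yki+Tai against Yki, beside 3.46% of all genes. The 2 called lower, beside 2.11% of all genes, were Pepck at -1.65 and Lsp1alpha at -1.29, a gene that passed the filter through Yki and Yki+Tai-IR. Of the 7 members 6 had a difference below 0, and the median was -0.53, beside -0.0017 for all genes. With the tai inverted repeat, 0 members were called in either direction in Yki+Tai-IR against Yki, where 3.20% of all genes were called higher and 0.922% lower. As deposited, all 7 differences were above 0, with a median of 0.31 beside 0.0074, but the ratio of Lsp2 was 0.999 after rescaling by the median ratio and 0.961 after rescaling to the same FPKM sum. In this comparison the interval of the ratio left out 1 for Fbp1 and Pepck only. The level of yki differed here too, at 2563 FPKM in Yki+Tai-IR against 5034 in Yki. Differences that go with yki and with the inverted repeat cannot be told apart. The same holds for Yki+Tai, with yki at 4535 FPKM, against Yki+Tai-IR.

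Set against Yki+Tai-IR, Yki+Tai had 0 members called higher, beside 3.71% of all genes, and 2 lower, Pepck at -2.17 and Lsp1alpha at -1.47, beside 4.43%. All 7 differences were below 0, with a median of -0.72 beside -0.015 for all genes, and the interval of the ratio left out 1 for every member but Fbp1. These comparisons share libraries: Yki enters 3 of them, and Yki+Tai and Yki+Tai-IR enter 2 each, so they are not separate evidence. Over the gene lists that follow, medians can be set beside those of all genes, which lay between -0.015 and 0.0074. Counts of called genes can be set beside the shares of all genes given above for each comparison.

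Other genes known from fat body had values of their own. Of 20 such genes, all in the table, 12 passed the filter of 1 FPKM. Among them, in Yki+Tai against Yki 0 were called higher and 1 lower, with a median of -0.13, beside 3.46% and 2.11% of all genes. In Yki+Tai-IR against Yki 3 were higher and 0 lower, with a median of -0.0058, beside 3.20% and 0.922%. In Yki+Tai against Yki+Tai-IR 1 was higher and 2 lower, with a median of -0.25, beside 3.71% and 4.43%. NLaz, called in both comparisons with Yki+Tai-IR, exceeded 1 FPKM in that library alone and passed only through it. The filter thus partly set these counts. In Yki against GFP 0 were higher and 1 lower, with a median of -0.11, beside 1.86% and 3.05% of all genes. The list summed to 598 FPKM in Yki+Tai, 690 in Yki+Tai-IR, 677 in Yki and 609 in GFP. That sum was carried by genes that other cells use as well, led by the fatty acid desaturase gene desat1 at 234, 300.4, 330 and 204 FPKM and the formaldehyde dehydrogenase gene Fdh at 233, 251, 217 and 269 FPKM in the same order.

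Several other genes of the list had low FPKM. Rfabg, which encodes the main lipoprotein of hemolymph, stood at 0.915 FPKM in Yki+Tai, 0.960 in Yki+Tai-IR, 1.30 in Yki and 1.48 in GFP. Its transcript is 11356 nt long, so more fragments lie behind these values than behind equal values of shorter genes. The adipokinetic hormone receptor gene, listed as GRHR, reached at most 0.068 FPKM and was listed at 0 in Yki. The glycine methyltransferase gene CG6188 was listed at 0 in Yki+Tai, Yki and GFP, CG6385 was listed at 0 in Yki+Tai-IR and GFP, and Adh was listed at 0 in Yki+Tai-IR.

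Single genes of that list had ratios far from 1. The transferrin gene Tsf1 stood at 4.65 FPKM in Yki+Tai, 16.9 in Yki+Tai-IR, 4.93 in Yki and 13.5 in GFP. Its ratio of Yki to GFP, 0.366 (0.294 to 0.453), is near that of Fbp1, and Yki+Tai-IR stood above Yki at 3.43 (2.79 to 4.23). The lipocalin gene NLaz stood at 0.340 FPKM in Yki+Tai, 4.61 in Yki+Tai-IR, 0.148 in Yki and 0.176 in GFP, on about 27 fragments in Yki+Tai-IR and 1 to 3 in the others. The insulin-like peptide gene Ilp6 was lowest in Yki+Tai, at 0.938 FPKM, beside 2.32 in Yki+Tai-IR, 3.31 in Yki and 2.33 in GFP, a ratio of 0.283 (0.161 to 0.482) for Yki+Tai against Yki. The triglyceride lipase gene bmm stood at 1.78, 2.32, 0.604 and 1.53 FPKM in Yki+Tai, Yki+Tai-IR, Yki and GFP.

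Genes of the reactions around Pepck were examined with it. Of 14 genes of gluconeogenesis, glycogen and trehalose, 12 passed the filter. Of these, in Yki+Tai against Yki 1 was called higher and 1 lower, with a median of -0.0047, and in Yki+Tai against Yki+Tai-IR 0 higher and 2 lower, with a median of -0.063. In Yki against GFP and in Yki+Tai-IR against Yki 0 were called in either direction, with medians of -0.074 and 0.15. The median of the list was near 0 in the comparisons of Yki+Tai. Its genes for 4 enzymes of gluconeogenesis, a grouping made after their values were seen, did not share 1 order. CG15400, the glucose-6-phosphatase gene, was below the filter and highest in Yki+Tai, at 0.648 FPKM, with 0.609 in Yki+Tai-IR, 0.424 in Yki and 0.377 in GFP. Its transcript is 1194 nt long, so few fragments lie behind these values. No counting interval was made for it, so its order of libraries is not established. The other 3 were, like Pepck, lowest in Yki+Tai. The fructose-1,6-bisphosphatase gene fbp stood at 19.9 FPKM in Yki+Tai and at 49.2 in Yki+Tai-IR, 36.3 in Yki and 53.2 in GFP. CG1516 (PCB), the pyruvate carboxylase gene, stood at 10.1 FPKM in Yki+Tai and at 27.5 in Yki+Tai-IR, 22.8 in Yki and 24.5 in GFP. CG10924 (Pepck2), the paralogue next to Pepck on 2R, was at 1.30 FPKM in Yki+Tai and at 2.35 in Yki+Tai-IR, 2.54 in Yki and 2.15 in GFP.

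Ratios of Yki+Tai to Yki were 0.548 (0.464 to 0.648) for fbp, 0.445 (0.400 to 0.496) for CG1516 and 0.512 (0.356 to 0.737) for CG10924, and each of these intervals lies above that of Pepck, which ended at 0.335. The glycogen synthase gene, listed as CG6904, had another order. It stood at 123 FPKM in Yki+Tai and at 79.7 in Yki+Tai-IR, 86.3 in Yki and 89.9 in GFP. The trehalose transporter gene Tret1-1 was highest in Yki+Tai, at 9.07 FPKM, beside 6.06 in Yki+Tai-IR, 2.62 in Yki and 1.01 in GFP, a ratio of 3.46 (2.69 to 4.54) for Yki+Tai against Yki.

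**Figure D4:**
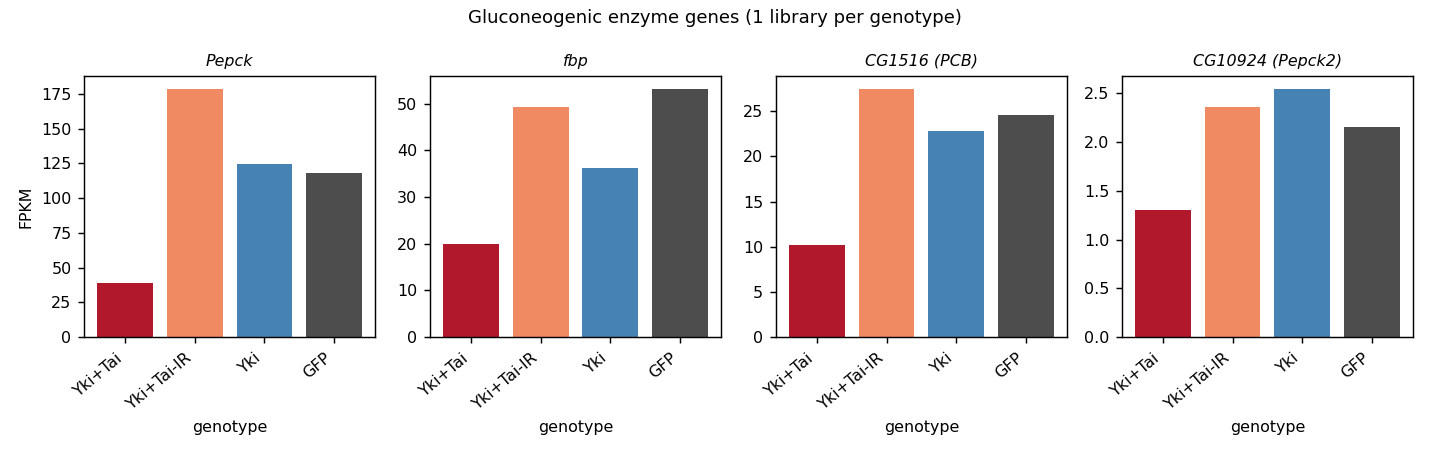
FPKM of Pepck, fbp (fructose-1,6-bisphosphatase), CG1516 (pyruvate carboxylase) and CG10924 (Pepck2) in the Yki+Tai, Yki+Tai-IR, Yki and GFP libraries, 1 bar per library, each axis starting at 0. Yki+Tai is the lowest library for each of these genes, at 39.0, 19.9, 10.1 and 1.30 FPKM. CG15400 (glucose-6-phosphatase), highest in Yki+Tai at 0.648 FPKM but on few fragments and without a counting interval, is not drawn.

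Markers of other larval tissues were read beside the members. Of the 14 salivary gland genes, 4 passed the filter. Of these, Sgs5, Sgs7 and Sgs8 passed only through Yki+Tai-IR and Yki, so that filter largely set how many of them differ, and no count or median of the 4 is given. The glue protein gene Sgs5 was listed at 0 in Yki+Tai and stood at 2.26 FPKM in Yki+Tai-IR, 1.72 in Yki and 0.292 in GFP. Sgs7 was listed at 0 in Yki+Tai and GFP and stood at 7.68 FPKM in Yki+Tai-IR and 4.77 in Yki, and Sgs8 stood at 0.547 in Yki+Tai, 2.47 in Yki+Tai-IR and 3.58 in Yki and was listed at 0 in GFP. Their transcripts are 321 to 636 nt long, so few fragments lie behind these values. Sgs5, Sgs7 and Sgs8 were higher in Yki+Tai-IR and Yki than in the other 2 libraries. So was Lsp1alpha, but the filter let in all of these genes through those libraries, so the likeness carries no weight. The gland regulator gene sage, the fourth to pass, was highest in Yki+Tai, at 8.17 FPKM. The list summed to 8.85, 19.2, 16.7 and 3.17 FPKM in Yki+Tai, Yki+Tai-IR, Yki and GFP, with 10, 6, 6 and 8 of its genes listed at 0, among them ng1, ng2, ng3 and PH4alphaSG1 in every library. Its part in the values of Lsp1alpha was not tested.

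Larval muscle genes other than bt and sls were highest in Yki+Tai-IR, where several members were also at their highest. Some were about as high in GFP: up stood at 5.10 FPKM in Yki+Tai-IR and 4.87 in GFP, and TpnC73F at 9.15 and 9.12. Of 12 such genes 9 passed the filter. In Yki+Tai-IR against Yki 7 were called higher and 0 lower, with a median of 1.80, where 3.20% of all genes were called higher. Mlc1, Tm2, Mf and up exceeded 1 FPKM only in Yki+Tai-IR and GFP, so the filter partly set the counts and medians of this list. Conversely, in Yki+Tai against Yki+Tai-IR 7 were called lower and 0 higher, with a median of -1.66, where 4.43% of all genes were called lower. In Yki against GFP 4 were called lower and 0 higher, with a median of -0.72, where 3.05% of all genes were called lower. In Yki+Tai against Yki 0 were called in either direction, with a median of 0.055. The myosin light chain gene Mlc1 stood at 0.431 FPKM in Yki+Tai, 5.99 in Yki+Tai-IR, 0.452 in Yki and 1.34 in GFP, and the muscle actin gene Act57B at 4.31, 19.9, 4.53 and 15.2 FPKM in the same order. The list summed to 26.9 FPKM in Yki+Tai, 75.8 in Yki+Tai-IR, 24.5 in Yki and 53.5 in GFP, with none of its genes listed at 0. Its part in the members' values was not tested.

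Several hemocyte markers were highest in Yki+Tai, where 6 of the 7 members were at their lowest. Others were not. The marker crq stood at 32.5 FPKM in Yki+Tai and 41.1 in Yki. Cg25C, vkg and proPO-A1 were no higher in Yki+Tai than in GFP, and lz was highest in Yki+Tai-IR. Of 12 markers of these blood cells 10 passed the filter. In Yki+Tai against Yki 5 were called higher and 0 lower, with a median of 0.96, where 3.46% of all genes were called higher. In Yki+Tai against Yki+Tai-IR they were again 5 and 0, with a median of 1.01, where 3.71% of all genes were called higher. Hml, nimC1 and Sr-CI exceeded 1 FPKM in Yki+Tai alone and passed only through it. The filter thus partly set these counts and medians. In Yki against GFP 2 were called lower and 0 higher, with a median of -0.33, and in Yki+Tai-IR against Yki 0 in either direction, with a median of 0.018. The phagocytosis receptor gene nimC1 stood at 7.70 FPKM in Yki+Tai, 0.719 in Yki+Tai-IR, 0.341 in Yki and 0.539 in GFP. The scavenger receptor gene Sr-CI stood at 5.46 FPKM in Yki+Tai, 0.197 in Yki+Tai-IR, 0.343 in Yki and 0.474 in GFP, and the peroxidasin gene Pxn, also made by fat body, at 9.00, 1.60, 0.832 and 3.17 FPKM. The list summed to 267 FPKM in Yki+Tai, 159 in Yki+Tai-IR, 197 in Yki and 230 in GFP, most of it from Ppn, and lz alone was listed at 0, in Yki. The part of hemocytes in the members' values was not tested. Of 11 gut and Malpighian tubule genes 0 passed the filter, and their sums were 0.235 FPKM in Yki+Tai, 1.02 in Yki+Tai-IR, 0.0833 in Yki and 0.0765 in GFP, with 8, 7, 10 and 10 genes listed at 0.

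**Figure D5:**
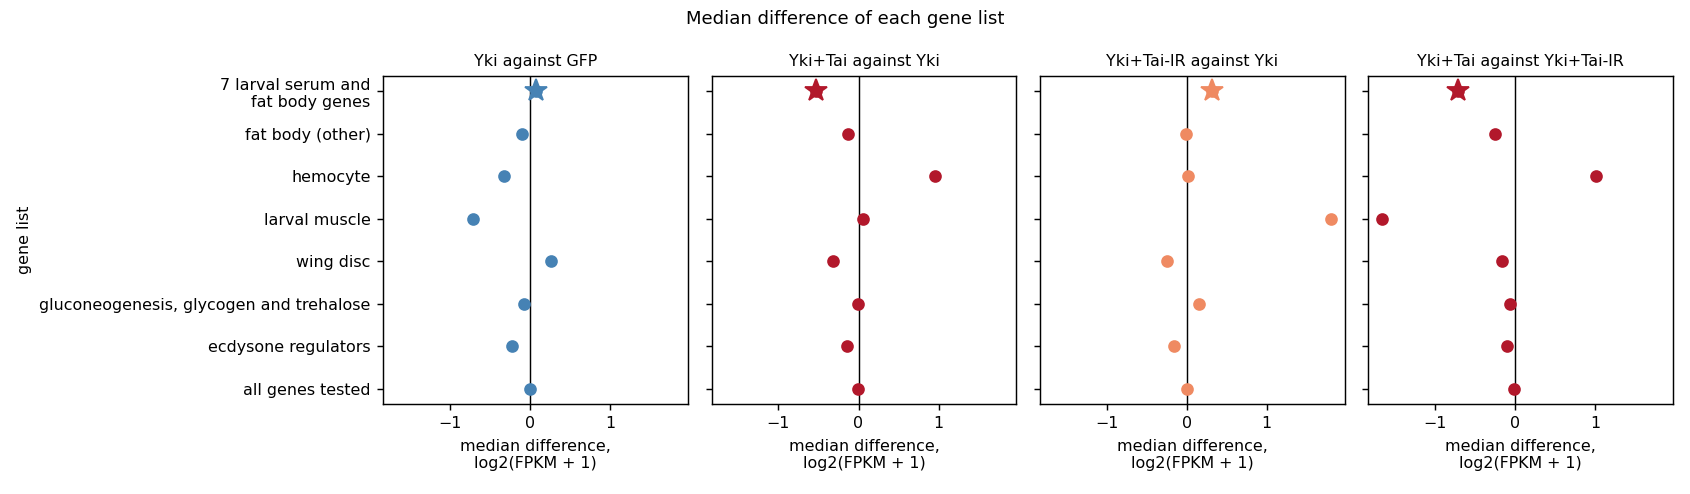
Median difference in log2(FPKM + 1) of the 7 larval serum and fat body genes (star), of 6 other gene lists and of all 7808 genes tested (points), in 4 comparisons. In Yki+Tai against Yki the 7 genes have a median of -0.53, the other fat body genes -0.13 and the hemocyte list 0.96. Of the hemocyte list, Hml, nimC1 and Sr-CI passed the filter only through Yki+Tai.

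Genes of the ecdysone response were read as a measure beside the members, since several fat body genes are ecdysone targets. Of 14 receptor, early and regulator genes 12 passed the filter. In Yki against GFP 2 were called higher and 2 lower, with a median of -0.23, and in Yki+Tai against Yki 1 higher and 3 lower, with a median of -0.15. In Yki+Tai-IR against Yki 0 were called in either direction, with a median of -0.16, and in Yki+Tai against Yki+Tai-IR 1 higher and 2 lower, with a median of -0.10. The nuclear receptor genes Hr46 and Hr4 had the same highest and lowest libraries as Lsp2. Hr46 stood at 0.236 FPKM in Yki+Tai, 3.76 in Yki+Tai-IR, 4.28 in Yki and 14.0 in GFP, and Hr4 at 1.53, 4.75, 6.27 and 16.9 FPKM in the same order. Cyp18a1, whose enzyme inactivates ecdysone, stood at 23.2, 5.22, 8.43 and 2.34 FPKM, highest in Yki+Tai and lowest in GFP. The competence factor gene ftz-f1 was lowest in GFP too, at 8.53 FPKM in Yki+Tai, 9.86 in Yki+Tai-IR and 9.62 in Yki against 2.69 in GFP. The receptor gene EcR varied little. It stood at 43.2 FPKM in Yki+Tai, 44.0 in Yki+Tai-IR, 42.9 in Yki and 35.2 in GFP, and Aef1, a repressor in fat body, at 23.6, 26.1, 28.8 and 25.9 FPKM. The GATA factor gene srp, shared by fat body and hemocytes, stood at 1.04, 0.227, 0.174 and 0.466 FPKM in Yki+Tai, Yki+Tai-IR, Yki and GFP. The part of this pathway in the members' values was not tested.

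The members also differed in pattern. Profiles were compared as log2(FPKM + 1) centred over the 4 libraries, with the Euclidean distance as the measure. Lsp1gamma lay nearest to the mean profile of the members, at 0.264, and Fbp1 and Pepck farthest, at 0.980 and 0.950. The 10 other genes nearest to that mean lay at 0.031 to 0.139. They were picked as the nearest of all genes tested, so their lying closer than any member is no result. They began with the microsomal glutathione S-transferase gene Mgstl, at 59.2 FPKM in Yki+Tai, 116 in Yki+Tai-IR, 91.5 in Yki and 99.9 in GFP, and the ribonucleotide reductase gene RnrS, followed by CG14291, CG2145, Nnf1b, CG16986, CG2249, CG12744, CG32856 and Prosalpha5. None of the 10 is on the list of other fat body genes. That list holds only 12 of the 7808 genes tested, so this absence says little.

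Nearest to single members were SP1173 and eg for Lsp1alpha, mRpL36 and dup for Lsp1beta, CG8021 and CG15080 for Lsp1gamma, Sec61gamma and bbg for Lsp2, E5 and SP1029 for Fbp1, and Rpb4 and CG14709 for Fbp2. For Pepck they were CG7201, at 1.18 FPKM in Yki+Tai and at 7.77 in Yki+Tai-IR, 5.07 in Yki and 5.49 in GFP, and CG11905, at 8.72 FPKM in Yki+Tai and at 38.9 in Yki+Tai-IR, 27.7 in Yki and 32.6 in GFP. The distance was 0.168 for CG7201 and 0.266 for CG11905, the widest nearest distances among the 7 members.

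Most genes next to the members had low values. Of 13 adjacent protein-coding genes with a value, 10 stayed below 1 FPKM in all 4 libraries. Low values are common in the table, where 7808 of 13990 genes reached a mean of 1 FPKM with small-RNA genes left out. The share of all genes below 1 FPKM in every library was not counted, so the 10 are a description only. Lsp1alpha lies between Cpr11A and CG15730, which reached 0.748 and 0.0600 FPKM. The exceptions were CG11534 beside Lsp2, at 11.1 to 14.7 FPKM, FucTB beside Fbp2, at 2.70 to 6.16, and CG10924 beside Pepck, at 1.30 to 2.54. CG11534 was highest in Yki+Tai, at 14.7 FPKM, where Lsp2 was lowest, and FucTB was at 5.15 FPKM in Yki+Tai, 6.16 in Yki+Tai-IR, 3.49 in Yki and 2.70 in GFP.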

How the data were processed

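The authors deposited 1 FPKM value per gene and library, for 13990 genes. Per the labels' protocols, rRNA was depleted from 4 µg of total RNA and libraries were made with the TruSeq RNA kit v2. Per the submitters' processing notes, the tools were TopHat2 2.0.12, Cuffdiff 2.2.1 and CASAVA 1.4, with the dm6 build. The annotation and the options were not given in the sources used here. Since FPKM is relative to the library, a rise of some genes lowers the rest.

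Symbols were matched to Ensembl release 115 (BDGP6, dm6 coordinates): 10529 directly, 3235 by locus tag or older symbol, 226 not. Pepck was matched to Pepck1 because its paralogue has its own row as CG10924. Small-RNA genes (280) were left out of whole-table counts. Depth was the value at which low FPKM of protein-coding genes with 1 transcript became whole fragments, after 210 nt were taken off the transcript length. At that depth 73.8% to 75.9% of 1036 to 1064 values per library lay within 0.08 of a whole number, where even spacing gives 16%. For members, 3 fragments correspond to 0.0751 to 0.431 FPKM. Fragment numbers are estimates, and they use 1 transcript length per gene. Exact Clopper-Pearson intervals on them cover counting error only. An exact 0 can be a failed estimate.

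Named genes were all 7 members, per list the 2 to 4 genes that differed most, the 10 genes nearest to the members' mean profile and the 2 nearest to each member, the neighbours, and yki and tai. Others in the text (desat1, Fdh, Rfabg, GRHR, CG6188, CG6385, Adh, CG10924, CG6904, CG15400, EcR, Aef1, srp, Ppn, lz, crq, Cg25C, vkg, up, Tm2, bt, sls, ng1, ng2, ng3, sage and PH4alphaSG1) were picked once their values were known. The members and the 11 lists were chosen with earlier results of these data known. Steps were tested on simulated data. Python 3.11.15, numpy 2.4.6, pandas 2.3.3, scipy 1.17.1 and matplotlib 3.10.9 were used.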

Additional observations from a re-analysis of the deposited data

How the results depend on the processing

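Members called at 2-fold depended on the pseudocount, the filter and the limit. In Yki against GFP, Lsp1alpha was called higher (1 member in place of 0) with a pseudocount of 0.1 and, in a rule added after seeing the data, with no pseudocount and a counting interval beyond 1. Fbp1, the 1 member called lower there, was not called (0) with a pseudocount of 5, an FPKM filter of 5 or a limit of 4-fold. For Yki+Tai against Yki, the 2 members called lower became 1 (Pepck) with a pseudocount of 5 or an FPKM filter of 5 and 0 with a limit of 4-fold. In Yki+Tai against Yki+Tai-IR, the 2 became 1 (Pepck) with a pseudocount of 5, an FPKM filter of 5 or a limit of 4-fold, 3 (Lsp1alpha, Fbp2 and Pepck) with a pseudocount of 0.1, and 4 (Lsp1alpha, Lsp1beta, Fbp2 and Pepck) with no pseudocount and a counting interval beyond 1. The filter of 5 keeps 2 members, Lsp2 and Pepck. The counts of members under the other alternatives, among them both rescalings, were those given in the report. Of 28 ratios of members, 28 stayed within their intervals under each rescaling. The rescaling factors lay between 0.973 and 1.02, so a ratio could move little and this says little about wide intervals. Fragments from the full transcript length change the interval and not the ratio, so that setting could not move a ratio. Lsp2 in Yki+Tai-IR against Yki, never called, crossed 1, at 0.999 after rescaling by the median ratio and 0.961 after rescaling to the same FPKM sum. For Pepck in Yki against GFP, at 1.06 and 1.10, both rescalings gave an interval above 1.

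Counts over all genes, as higher and lower, were 145 and 238 in Yki against GFP, 270 and 165 in Yki+Tai against Yki, 250 and 72 in Yki+Tai-IR against Yki and 290 and 346 in Yki+Tai against Yki+Tai-IR. With a pseudocount of 5 they were 58 and 96, 129 and 66, 90 and 27, and 154 and 149, and with an FPKM filter of 5 they were 92 and 129, 135 and 112, 100 and 38, and 174 and 200. With a limit of 4-fold they were 30 and 42, 84 and 21, 73 and 10, and 78 and 79. With a pseudocount of 0.1, 235 were higher in Yki against GFP, 248 lower in Yki+Tai against Yki and 150 lower in Yki+Tai-IR against Yki, the last being 115 with small-RNA genes kept. Depth limits Lsp1alpha in Yki+Tai (2 fragments) and Fbp2 (11 to 23 fragments).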

Other observations

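The hexamerin genes belong to the arthropod hemocyanin superfamily with the prophenoloxidase genes, whose enzymes drive melanization and are made mainly by hemocytes. Of the 3 prophenoloxidase genes 2 passed the filter of 1 FPKM, and 1 was called, proPO-A1, lower in Yki than in GFP. CG8193 (PPO2) stood at 5.61 FPKM in Yki+Tai, 2.37 in Yki+Tai-IR, 2.36 in Yki and 4.59 in GFP, and proPO-A1 at 2.68, 2.07, 1.22 and 3.58 FPKM in the same order. Both were above Yki in Yki+Tai, where all 4 hexamerin genes were below it. For Lsp1beta this was within counting error, at 0.708 (0.389 to 1.21), and no interval was made for the prophenoloxidase genes. The medians of the pair were -0.89 in Yki against GFP, 0.85 in Yki+Tai against Yki, 0.24 in Yki+Tai-IR against Yki and 0.62 in Yki+Tai against Yki+Tai-IR.

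Antimicrobial peptide genes, which fat body transcribes after infection, were mostly low or listed at 0. Of 15 such genes 2 passed the filter. Drs (drosomycin) stood at 6.46 FPKM in Yki+Tai, 0.747 in Yki+Tai-IR, 2.60 in Yki and 3.08 in GFP, and was called higher in Yki+Tai against both Yki and Yki+Tai-IR, and lower in Yki+Tai-IR against Yki. Def (defensin) stood at 3.01 FPKM in Yki+Tai, 5.82 in Yki+Tai-IR, 6.75 in Yki and 3.34 in GFP, and was not called. The medians of these 2 genes were 0.33 in Yki against GFP, 0.050 in Yki+Tai against Yki, -0.61 in Yki+Tai-IR against Yki and 0.66 in Yki+Tai against Yki+Tai-IR. Of the list, 11, 7, 11 and 10 genes were listed at 0 in Yki+Tai, Yki+Tai-IR, Yki and GFP. Of the 2 alcohol dehydrogenase relatives of Fbp2, only Adh has a value here, at 0.0992 FPKM in Yki+Tai, 0.130 in Yki and 0.720 in GFP and listed at 0 in Yki+Tai-IR, below the filter.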
